A study of Capra hircus with 3 samples.

Results

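A rare set of liver macrophages, chosen by the summed counts of CPM, GPNMB, GLDN and MCOLN3, was examined in single-cell RNA sequencing libraries of goat liver. The cells were chosen by their own unique molecular identifiers (UMIs, each standing for 1 captured RNA molecule). A barcode was a member when CPM, GPNMB, GLDN and MCOLN3 summed to at least 3 UMIs, exceeded the hepatocyte genes CPS1 and ABCB11 together, and at least equalled the Kupffer cell genes MSR1, TIMD4, ADGRE1 and TBXAS1 together. It also had no UMI of STAB2, PKHD1 or THEMIS, which mark endothelial cells, cholangiocytes and T cells. The rule found 134 of 25591 barcodes. Because these 13 genes chose the members, their levels are given as a description.

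The study compared livers of 15 female goats aged 3 to 4 years in 3 groups. The NASH-T library came from the steatohepatitis tolerance group, fed the HRDS diet. Goats with non-alcoholic steatohepatitis on the same diet gave the NASH library, and the Con library came from healthy animals on the LRDS diet. Each library pooled 5 livers, and each group had 1 library. Group, pool, diet and library therefore cannot be told apart, no test between groups could be made, and every interval below is a 95% interval of counting error alone.

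Macrophages of fat-laden tissues and of atherosclerotic plaques can take on a state named lipid-associated, known from mouse and human work. Such cells take up lipid and cell debris, break them down in lysosomes and return cholesterol and iron to the circulation. They are recognised by TREM2, a lipid-sensing receptor, and by GPNMB, a lysosomal glycoprotein, often with LPL, CD36, CD9, SPP1 and FABP4. CPM encodes a membrane carboxypeptidase that appears as monocytes mature into macrophages, MCOLN3 a cation channel of endosomes and lysosomes, and GLDN gliomedin, better known from the nodes of nerve fibres. NRP2, a marker that the rule did not use, encodes neuropilin 2, a co-receptor of semaphorins and vascular growth factors.

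The libraries held 29572158 UMIs in NASH-T, 31195014 in NASH and 25506238 in Con. Members had a median of 2984 UMIs per barcode in NASH-T, 2030 in NASH and 2800.5 in Con, and 127101, 45800 and 223485 UMIs in all, so NASH gives the least precise values. Barcode sequences shared between libraries numbered 20 to 23 for each pair, and no member was among them. The doublet caller Scrublet marked no member. Kupffer-type barcodes (3 or more UMIs of the 4 Kupffer cell genes, more than of the 4 rule markers) numbered 1366, 1127 and 1212 in NASH-T, NASH and Con. T cell-type barcodes, chosen by THEMIS and without a UMI of any other rule gene, give a level that free RNA may leave in a cell that lacks a gene. As barcodes with stray UMIs of the rule markers or Kupffer cell genes were left out, this level may be too low for macrophage genes. T cell-type barcodes had a median depth of 1303.5, 1116 and 1244 UMIs in NASH-T, NASH and Con.

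The members were macrophages by their markers, but the lipid-associated label was met only in part. Of 15 general macrophage markers 14 were in the files, and their summed level in members was 3816 UMIs per 1000000 UMIs of the class (UPM) in NASH-T, 3406 in NASH and 5177 in Con, against 337, 342 and 317 in T cell-type barcodes. At least 1 of these markers was present in 36 of 38, 20 of 22 and 73 of 74 members. Hepatocyte-type barcodes (CPS1 and ABCB11 at 3 or more UMIs, no other rule gene) held at least 1 in 95.8%, 95.7% and 94.7%. Presence alone therefore does not tell macrophages apart. The summed level in hepatocyte-type barcodes was 1570, 1246 and 1196 UPM, below that of members. FCER1G had no UMI in members of any library. TREM2 had no UMI in members or in Kupffer-type barcodes of any library, and 3, 1 and 3 UMIs in the whole NASH-T, NASH and Con libraries. FABP4 was also at 0 in members, and SPP1 had 1, 0 and 0 UMIs. APOE, a lipid carrier protein, reached 110, 218 and 237 UPM, below the 327, 309 and 336 of T cell-type barcodes. PLIN2, the lipid droplet coat protein, had 2, 0 and 7 UMIs in members. LGALS3, which encodes galectin-3, was present at 425, 65.5 and 524 UPM in NASH-T, NASH and Con members, against 39.6, 40.3 and 62.1 in Kupffer-type barcodes. The cells are therefore called members here. GPNMB itself was present in 22 of 38, 6 of 22 and 51 of 74 members of NASH-T, NASH and Con.

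Markers of other cell types were at or near 0 in the members, or their lists summed to no more than in T cell- or Kupffer-type barcodes. Stellate cell markers and, by a few UMIs, dendritic cell markers were exceptions. Hepatocyte markers summed to 1636, 2162 and 1754 UPM in NASH-T, NASH and Con members, below the 3823, 3381 and 3162 of T cell-type barcodes. The B cell list reached 858, 677 and 1043, nearly all of it BANK1, and CD79A, CD79B and MS4A1 were at 0. Endothelial markers summed to 614, 262 and 434 UPM, against 886, 844 and 769 in Kupffer-type barcodes. FLT1, a VEGF receptor of that list, had 16, 2 and 0 UMIs in members, or 126 UPM in NASH-T against 15.9 in Kupffer-type barcodes, and its part in the NASH-T results was not tested. The T cell, NK cell, cholangiocyte, neutrophil, mast cell, plasma cell and dendritic cell lists each stayed under 100 UPM in every library. The dendritic cell list reached 55.1, 43.7 and 44.7 UPM from 7, 2 and 10 UMIs, above the 35.7, 37.7 and 39.4 of Kupffer-type barcodes. Stellate cell or fibroblast markers summed to 78.7, 328 and 35.8 UPM, and 1, 3 and 1 members held 3 or more such UMIs. Where a named gene or a share below changed its call without these 5 stellate-marked barcodes, this is said beside it.

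Members were scarcer in both libraries of the HRDS diet than in Con. They numbered 38 of 9375 barcodes in NASH-T, 22 of 8731 in NASH and 74 of 7485 in Con. As shares these were 0.405% (0.287 to 0.556) in NASH-T, 0.252% (0.158 to 0.381) in NASH and 0.989% (0.777 to 1.24) in Con, with exact binomial intervals. The NASH-T share was 0.410 of the Con share (0.270 to 0.614) and the NASH share was 0.255 of it (0.151 to 0.415). NASH-T exceeded NASH 1.61-fold, with an interval of 0.927 to 2.86 that includes 1. Without the stellate-marked barcodes the ratio of NASH over Con was 0.223 and that of NASH-T over NASH was 1.81 (1.02 to 3.34). After every barcode was thinned to 1000 UMIs before the rule, members made up 0.367%, 0.163% and 1.15% of barcodes in NASH-T, NASH and Con, in the same order. Counted against members and Kupffer-type barcodes together, they were 2.71%, 1.91% and 5.75%.

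The 4 rule markers were spread unevenly over the members. The median rule-marker sum of a member was 11.5 UMIs in NASH-T, 6.5 in NASH and 19 in Con, and the highest sums were 69, 32 and 132. At the threshold itself, 3, 6 and 4 members had a sum of exactly 3, and 6, 5 and 12 barcodes that met the other conditions had a sum of 2. A further 65, 28 and 77 barcodes had 3 or more marker UMIs but more Kupffer gene UMIs. CPM was present in 28, 20 and 68 members of NASH-T, NASH and Con, GPNMB in 22, 6 and 51, GLDN in 21, 7 and 46, and MCOLN3 in 21, 6 and 28. Kupffer-type barcodes, which may hold fewer rule-marker UMIs than Kupffer gene UMIs, held CPM at 73.3, 57.1 and 88.8 UPM.

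When the members were chosen from the other 3 markers, so that the marker described had no part in the choice, GPNMB stood at 1390 UPM in NASH-T, 282 in NASH and 1632 in Con (32, 19 and 60 cells). NASH was at 0.173 of Con (0.0854 to 0.314), while NASH-T and Con differed by less than their counting error (0.851, 0.696 to 1.04). CPM, chosen through the other markers in 27, 7 and 43 cells, stood at 937, 1041 and 3220 UPM, lower in both libraries of the HRDS diet (NASH-T 0.291 and NASH 0.323 of Con). MCOLN3 was higher in NASH-T, with 1499, 602 and 919 UPM and a ratio of NASH-T over Con of 1.63 (1.32 to 2.01). When 2 or more of the other 3 markers were required, GPNMB stood at 1.05 for NASH-T over Con and 0.681 (0.336 to 1.24) for NASH over Con. MCOLN3 then stood at 2.18 for NASH-T over Con, and for NASH over Con it turned round, at 1.92 (1.19 to 2.97) against 0.655 (0.406 to 1.01) before.

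NRP2, outside the rule, was carried at full depth by most members of every library. It reached 2400 UPM in NASH-T members, 1703 in NASH and 2116 in Con, against 300, 318 and 353 in Kupffer-type barcodes and 10.7, 8.73 and 3.33 in T cell-type barcodes. Endothelial-type barcodes, chosen by STAB2 and without a UMI of any other rule gene, held 605, 547 and 481 UPM. NRP2 was present in 56.6%, 51.6% and 41.9% of these. A UMI of NRP2 was present in 84.2%, 63.6% and 85.1% of members and in 1.04%, 0.612% and 0.456% of T cell-type barcodes. At 1000 UMIs per barcode the shares were 61.1%, 42.1% and 72.1% of members, against 0.851%, 1.04% and 0.496%.

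Members with several rule markers were scarcer in both libraries of the HRDS diet, while members with CPM alone had a similar share in all 3. Members that had CPM as their only rule marker numbered 8 in NASH-T, 9 in NASH and 7 in Con, or 0.0853% (0.0368 to 0.168), 0.103% (0.0471 to 0.196) and 0.0935% (0.0376 to 0.193) of barcodes. Their share was thus similar in NASH-T and Con (ratio 0.912, 0.289 to 2.96) and in NASH and Con (1.10, 0.365 to 3.48), within wide intervals that also allow a 2-fold difference. Members with 2 or more rule markers numbered 26, 8 and 62, or 0.277% (0.181 to 0.406), 0.0916% (0.0396 to 0.180) and 0.828% (0.636 to 1.06). Here NASH-T stood at 0.335 of Con (0.203 to 0.537), NASH at 0.111 of Con (0.0457 to 0.232), and NASH-T at 3.03-fold of NASH (1.33 to 7.74). A single marker other than CPM was found in 3, 2 and 4 members. Members with only CPM thus made up 40.9% of members in NASH, against 21.1% in NASH-T and 9.46% in Con. This division of the members, without the stellate-marked ones, was made after the data were seen.

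**Figure D1:**
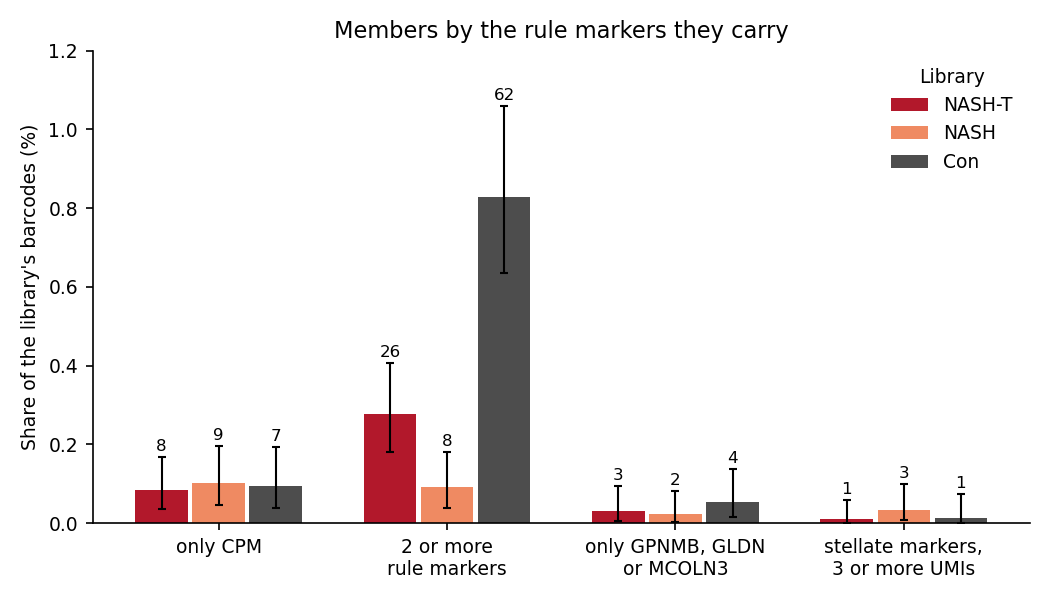
Members as a percent of all barcodes of the NASH-T, NASH and Con libraries, divided by which rule markers they held; bars are shares, lines are exact binomial 95% intervals, and the numbers over the bars count cells. The share with only CPM is 0.0853%, 0.103% and 0.0935%, while the share with 2 or more rule markers is 0.277%, 0.0916% and 0.828%.

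With libraries pooled, members with only CPM differed from members with 2 or more markers in genes the rule did not use. Not every such gene differed beyond counting error in each library. Summed over libraries, the 24 only-CPM members held 46335 UMIs and the 96 others 304980, and the median depth was 1771 and 2860.5 UMIs per barcode. Only-CPM members held 18978, 14344 and 13013 UMIs in NASH-T, NASH and Con, and the others 91977, 15635 and 197368. Con thus weighs most among the others, and the pooled ratios also carry differences between libraries. The median rule-marker sum was 7.5, 4 and 5 UMIs in only-CPM members of NASH-T, NASH and Con, and 16.5, 11 and 20.5 in the others. The part of depth and of low marker sums in the division was not tested. After thinning to equal depth before the rule, 60 genes were higher past 2-fold and 104 lower. These counts cannot settle it, because thinning can remove a member's other markers and so place it among the only-CPM members. Of 2625 genes with at least 30 UMIs, 215 (8.19%) were higher past 2-fold in members with only CPM and 293 (11.2%) were lower. Past 2-fold means here and below a ratio of at least 2, or at most its inverse, with a counting interval that excludes 1. It is a rule of size, not a test. The median log2 ratio of all these genes was -0.07.

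OSR1, a zinc finger transcription factor, stood at 2108, 1046 and 768 UPM in only-CPM members of NASH-T, NASH and Con, against 10.9, 64.0 and 10.1 in members with 2 or more markers. It was present in 14 of 24 and 3 of 96 cells, and the pooled ratio was 107 (39.8 to 404). CREB5, a transcription factor of the CRE-binding family, reached 2160, 1534 and 1230 UPM in only-CPM members, against 0, 0 and 50.7 (52.0-fold, 26.8 to 113). PLXDC2, a membrane protein with a plexin domain, reached 2055, 1394 and 2690, against 43.5, 1087 and 55.7, so members with 2 or more markers in NASH also held it. HLA-DRA, the alpha chain of an MHC class II molecule, was higher in only-CPM members when libraries were pooled (ratio 4.67, 2.58 to 8.33). It stood at 632, 558 and 154 UPM in NASH-T, NASH and Con against 76.1, 320 and 96.3. In NASH (8 against 5 UMIs) and Con (2 against 19 UMIs) the counting intervals of the 2 kinds overlapped. OSR1 stood at 43.8 and CREB5 at 21.7 UPM in Kupffer-type barcodes, so both were also far above the resident macrophage level in only-CPM members.

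Several lysosomal, iron-handling and scavenger genes were low or at 0 in only-CPM members. LGALS3 had no UMI in the 24 only-CPM members, while 57 of the 96 with 2 or more markers held it at 528 UPM together, at least 8.15-fold lower against a floor of 3 counts. LGMN, the lysosomal protease legumain, had 1 UMI against 145 (0.0454, 0.00114 to 0.257), and CD163, the haemoglobin scavenger receptor, had 2 against 288 (0.0457, 0.00551 to 0.167). NRP2 stood at 369, 209 and 231 UPM in only-CPM members of NASH-T, NASH and Con, against 2740, 1279 and 2260, with 323 in Kupffer-type barcodes of all libraries. Cathepsin D (CTSD, 0.123), cathepsin B (CTSB, 0.207) and ferritin heavy chain (FTH1, 0.200) were lower as well. TFRC, the transferrin receptor, and CACNA1E, a calcium channel subunit, had no UMI in only-CPM members, at least 4.51- and 9.42-fold lower. These ratios are pooled. In NASH the counting intervals of the 2 kinds overlapped for LGALS3 (0 against 3 UMIs), LGMN (1 against 2), CD163 (0 against 5) and CACNA1E (0 against 1). They also overlapped there for CTSD (1 against 9), CTSB (4 against 15) and FTH1 (6 against 17). The same held for CD163 in NASH-T (0 against 26) and TFRC in Con (0 against 43). NRP2, CD163, LGMN, CTSD, CTSB, FTH1 and HLA-DRA were picked for this comparison after their values were seen.

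By gene list, with libraries pooled, 7 of 11 measured lipid-associated macrophage genes were lower past 2-fold in only-CPM members and none was higher. The lower ones were CD9, LIPA, LGALS3, CTSB, CTSD, NRP2 and NCEH1 (list median log2 ratio -2.27). Of 18 lysosome genes 9 were lower and none higher (median -1.24), among them MITF, a regulator of lysosome genes, and HEXA, a ganglioside-degrading hexosaminidase. All 5 measured iron and haem genes were lower (-2.32), as were 4 of 6 genes of cholesterol efflux (-1.82), including the transporter ABCA1. CD36, the fatty acid translocase, differed by library. In NASH-T it stood at 1370 UPM (895 to 2007) in only-CPM members and at 109 in those with 2 or more markers, in NASH at 0 and 448, and in Con at 1153 and 1282. Single macrophage markers went both ways. C1QA, a complement C1q chain, stood at 842 against 567 (1.48), but MERTK stood at 540 against 1908 (0.283) and SPI1 had 0 UMIs against 17. At least 1 macrophage marker was present in 8 of 8, 8 of 9 and 7 of 7 only-CPM members, which alone does not tell macrophages apart. The general macrophage markers summed to 2477, 3486 and 3458 UPM in only-CPM members of NASH-T, NASH and Con. In members with 2 or more markers they summed to 4338, 4029 and 5411.

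**Figure D2:**
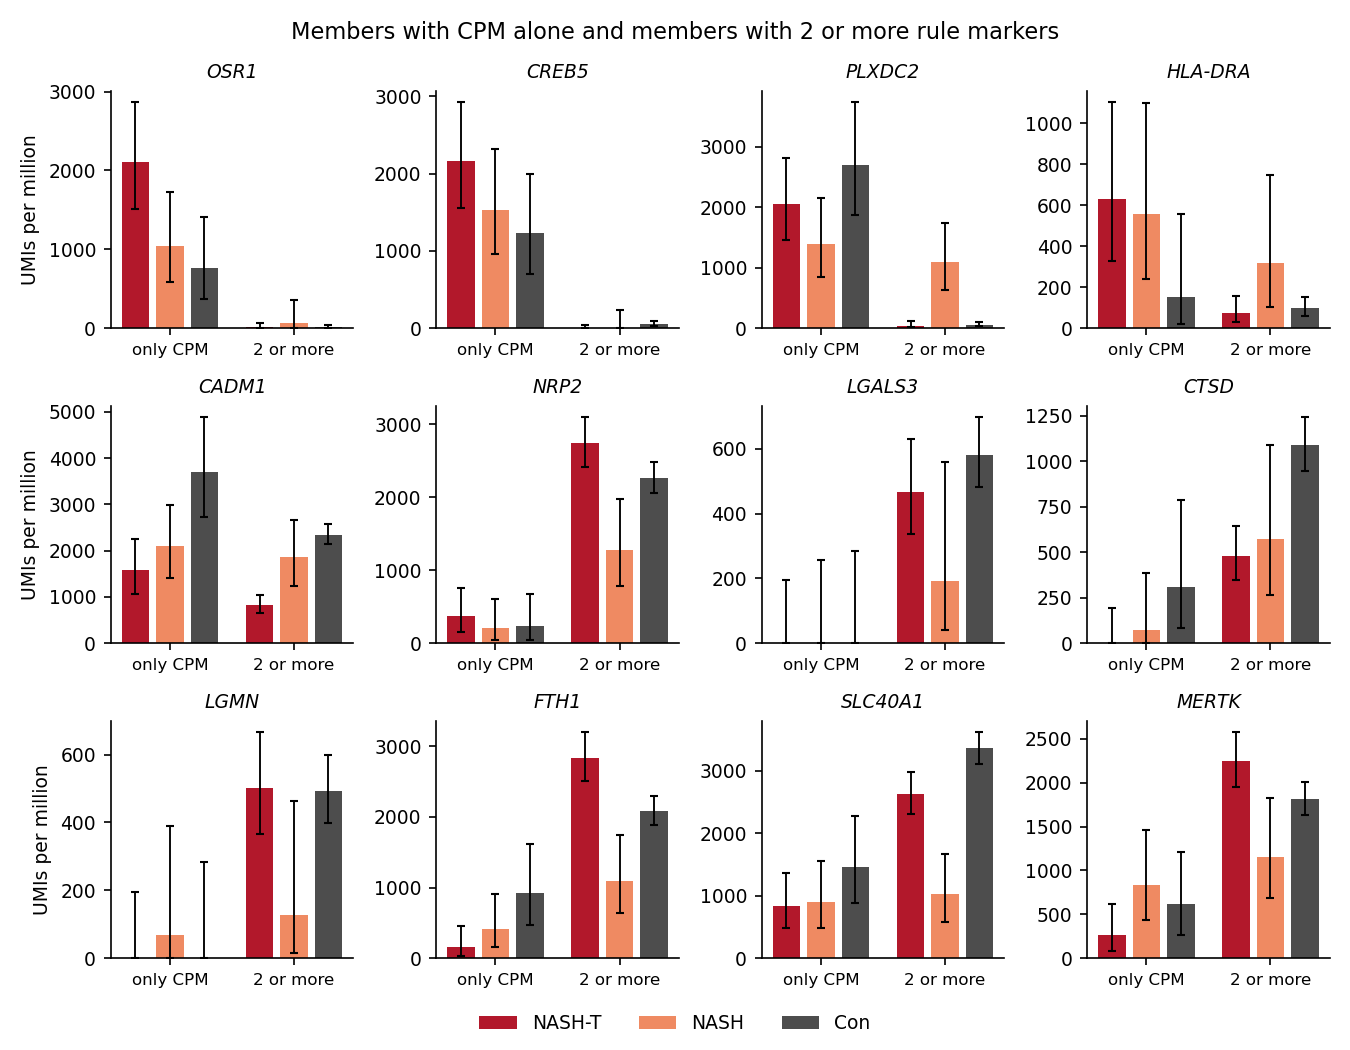
UPM of 12 genes in members with only CPM and in members with 2 or more rule markers, by library (NASH-T, NASH, Con), with exact Poisson 95% intervals. OSR1 and CREB5 are high in only-CPM members of every library, and NRP2, LGALS3, CTSD and FTH1 are high in members with 2 or more markers. In NASH the intervals of LGALS3, CTSD and FTH1 overlap between the 2 kinds.

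Against Kupffer-type barcodes of the same library, the most alike cells by the rule, the members had 107 genes (1.4% of 7616 measured) higher past 2-fold in all 3 libraries and 72 (0.945%) lower. As the rule sets these classes apart, the values describe what was chosen. The call asks for 2-fold in every library and is lost easily. Of 36 named genes past 2-fold, 27 stayed so without the stellate-marked barcodes and 13 within members with 2 or more markers. Without the barcode that held most of each gene 24 stayed so, after thinning to 1000 UMIs 7, and with no Kupffer gene UMI allowed 4. LPL, CD36, TYROBP, HEXA, SCARB1, PPARG, TNFRSF11A, IL1B and C1QC were among those that lost the call after thinning. MYO1E, an unconventional myosin of phagocytic cups, stood at 1566 UPM in NASH-T members, 1026 in NASH and 1150 in Con, against 66.6, 62.6 and 69.3 in Kupffer-type barcodes (pooled 19.1-fold, 17.0 to 21.4). It was present in 25, 11 and 39 members and was high in both kinds, 2374 UPM with only CPM and 1171 with 2 or more markers. TMEM117, a transmembrane protein, stood at 858, 764 and 501 against 33.4, 62.0 and 57.6 (13.1-fold). LPL, the lipase that releases fatty acids from circulating triglyceride, stood at 126, 87.3 and 210 UPM, against 14.5, 10.8 and 16.9 (11.8-fold, 8.52-fold without the top barcodes), and had a UMI in 7, 3 and 12 members. CD36 stood at 283, 153 and 1213, against 32.5, 45.3 and 175 (9.42-fold, 8.72-fold without the top barcodes). Both were then no longer past 2-fold in all 3 libraries.

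GAS7, an actin-binding protein, was 10.8-fold higher and MTSS1, which bends membranes at the cell edge, 8.72-fold. Both kept the call without the stellate-marked barcodes, with 2 or more markers and without the top barcodes. AHNAK, a large scaffold protein, was 13.8-fold higher and vimentin (VIM) 8.63-fold. Without the stellate-marked barcodes the pooled ratios were 13.9 and 8.41, but neither was past 2-fold in all 3 libraries. TNFRSF11A, the RANK receptor that drives osteoclast formation, was 3.56-fold higher, and 2.90-fold without the top barcodes, where its call was lost. Of 17 measured lipid-associated macrophage genes, 4 were higher and none lower (median log2 ratio 0.84, all genes -0.03): LPL, CD36, NRP2 and TYROBP, the adaptor through which TREM2 signals (2.74-fold). TYROBP lost the call without the stellate-marked barcodes, which left 3 genes of the list, and without the top barcodes NRP2 alone was left. Of 16 genes of lipid uptake and storage, 3 were higher (median 0.60), with SCARB1, the HDL receptor, at 2.53-fold, and none without the top barcodes. PPARG, the nuclear receptor of lipid-handling macrophages, was 2.54-fold higher and HEXA 2.94-fold, and both also lost the call there.

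The lower genes included a kinetochore gene, a receptor of resident macrophages and a cytokine. CENPE, a kinetochore motor of dividing cells, had 0, 0 and 8 UMIs in members (0.0645 of the Kupffer-type level). It had a UMI in 1577 of all 3705 Kupffer-type barcodes (313 UPM), and whether its level tracks cell division here was not tested. SIGLEC1, the sialoadhesin of tissue macrophages, had 3, 0 and 4 (0.148). IL1B, the cytokine interleukin 1 beta, stood at 0.190 of the Kupffer-type level, NPC2, which carries cholesterol out of the lysosome, at 0.299, the adhesion receptor CD44 at 0.400, and C1QC at 0.446. Within members with 2 or more markers CENPE and CD44 kept the call, and SIGLEC1, IL1B, NPC2 and C1QC were not past 2-fold in all 3 libraries.

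**Figure D3:**
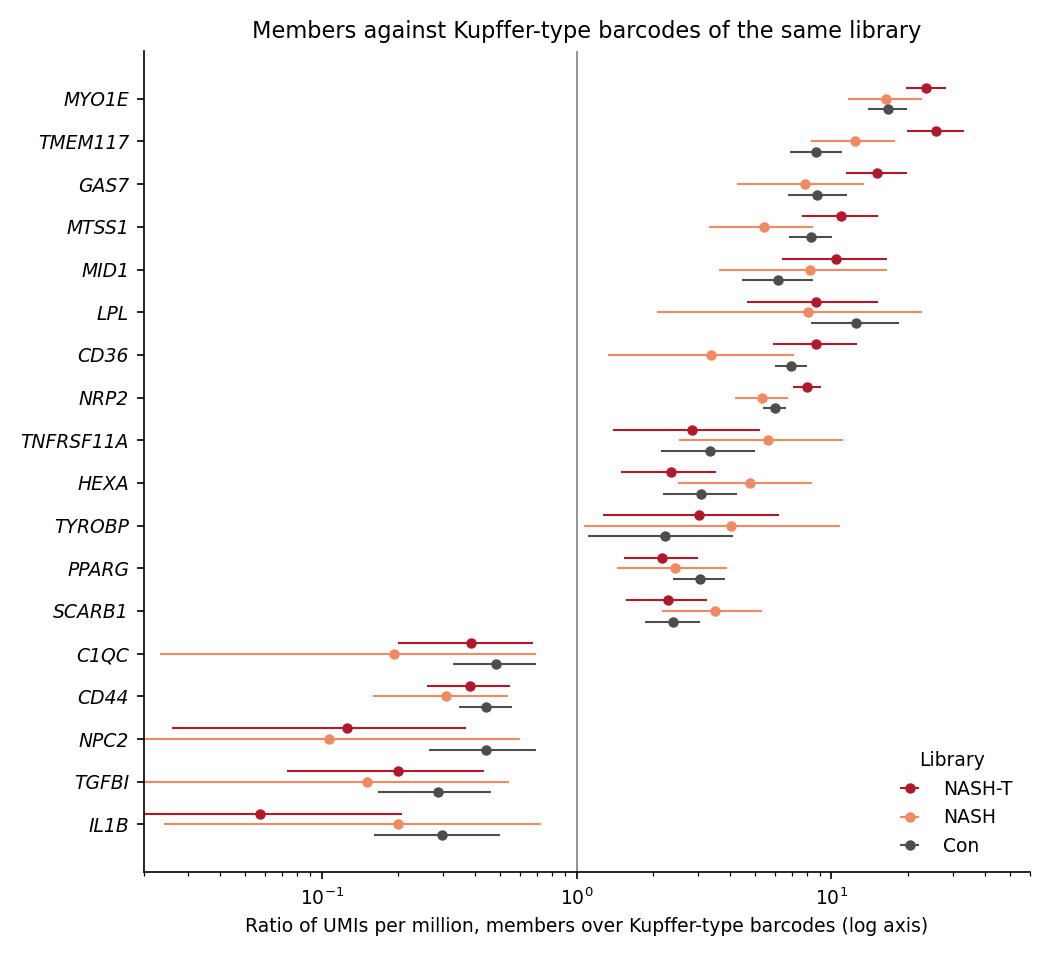
Ratio of members over Kupffer-type barcodes (UPM, log axis) for 18 genes in NASH-T, NASH and Con, with exact conditional 95% intervals as lines. MYO1E, TMEM117 and NRP2 lie well above 1 in each library and NPC2, TGFBI and IL1B below it.

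In NASH-T members, the scavenger receptors CD163 and CD36 and 3 of 6 genes of cholesterol efflux were lower than in Con members, and TNFSF15, CD83 and CD80 were higher. Of 2644 measured genes, 97 (3.67%) were higher past 2-fold in NASH-T and 140 (5.3%) were lower. The median log2 ratio of all of them was 0.00. CD163 had 26 UMIs in NASH-T members, 7 in NASH and 267 in Con, or 205, 153 and 1195 UPM. NASH-T stood at 0.171 of Con (0.110 to 0.257). A UMI was found in 18.4%, 18.2% and 74.3% of members, against 4.86%, 4.41% and 4.33% of T cell-type barcodes. Kupffer-type barcodes stood at 674, 571 and 1026 UPM, where the ratio of NASH-T over Con was 0.657. Among members with a GPNMB UMI and without stellate markers, 7 of 22 in NASH-T, 3 of 6 in NASH and 45 of 51 in Con had CD163.

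CD36 had 36 UMIs in NASH-T members, 7 in NASH and 271 in Con, and NASH-T stood at 0.234 of Con (0.160 to 0.332). It was present in 21.1%, 13.6% and 60.8% of members, against 2.78%, 1.10% and 1.71% of T cell-type barcodes. Kupffer-type barcodes were lower likewise, with a ratio of 0.186. Within members with 2 or more rule markers the ratio was 0.0848 (0.0402 to 0.159). Among the 37, 19 and 73 members without stellate markers in NASH-T, NASH and Con, CD163 was present in 7, 4 and 55 and CD36 in 8, 3 and 45. Both were found together in 0, 0 and 38 of them. With so few cells of either gene in NASH-T and NASH, a count of 0 says little.

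PLA2R1, a phospholipase A2 receptor, stood at 110, 131 and 738 UPM in NASH-T, NASH and Con (NASH-T over Con 0.149, 0.0798 to 0.258). SCIN, the actin-severing protein scinderin, had 6, 3 and 89 UMIs (0.119), and ANXA1, the anti-inflammatory annexin A1, had 2, 2 and 32 (0.110, 0.0128 to 0.431). B4GALT6, which makes lactosylceramide, had 0, 6 and 44, at least 8.34-fold lower in NASH-T. CADM1, a cell adhesion molecule, stood at 865, 1485 and 2466 UPM (0.351, 0.283 to 0.431), with 0.742 in Kupffer-type barcodes. Of 11 measured lipid-associated macrophage genes 3 were lower and none higher in NASH-T (CD36, CTSD and APOE, list median -0.74), but APOE stood below its T cell-type level. Of 6 genes of cholesterol efflux 3 were lower (-1.03). Besides APOE these were CYP27A1, sterol 27-hydroxylase, at 0.440, and NR1H3, the liver X receptor alpha, at 0.293 with 7, 2 and 42 UMIs. In the lysosome list 1 of 18 was lower (CTSD, 0.371) and the median was -0.05. NRP2 and LGALS3 were not past 2-fold either.

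TNFSF15, a TNF family cytokine also called TL1A, had 88 UMIs in NASH-T members, 2 in NASH and 13 in Con, or 692, 43.7 and 58.2 UPM. The ratio of NASH-T over Con was 11.9 (6.61 to 23.2), against 1.04 in Kupffer-type barcodes. It came from 10, 1 and 7 members, and without the barcode that held most of it in each library the ratio was 12.8. CD83, a maturation marker of antigen-presenting cells, had 43, 2 and 18 UMIs in 15, 1 and 13 members (4.20-fold, 2.37 to 7.74). CD80, the costimulatory ligand of CD28, had 39, 1 and 19 UMIs in 16, 1 and 15 members (3.61-fold, 2.04 to 6.61). Kupffer-type barcodes were also higher in NASH-T, 2.42-fold for CD83 and 1.92-fold for CD80. Of 10 NASH-T members with TNFSF15, 8 also had CD80, against 0 of 1 in NASH and 2 of 7 in Con, all without stellate markers. TAP2, the peptide transporter of antigen processing, had 31, 13 and 21 UMIs (2.60-fold), and 2 of 9 measured genes of antigen presentation were higher. BIRC3, an inhibitor of cell death induced by NF-kappaB, was 6.81-fold higher with 31, 8 and 8 UMIs, and NFKBIA, the NF-kappaB inhibitor, 4.04-fold with 23, 3 and 10. Without the top barcodes BIRC3, NFKBIA and ANXA1 had fewer than 30 UMIs and could not be measured. The immediate early genes are less firm: FOS was 12.3-fold higher, but 20 of its 28 NASH-T UMIs lay in 1 cell, and without the top barcode 1 of 3 measured genes of that list stayed past 2-fold. OSR1 was 5.55-fold higher in NASH-T, and within members with 2 or more markers it had too few UMIs to be measured. Its level in Con members, 58.2 UPM, was below the 156 of hepatocyte-type barcodes there.

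**Figure D4:**
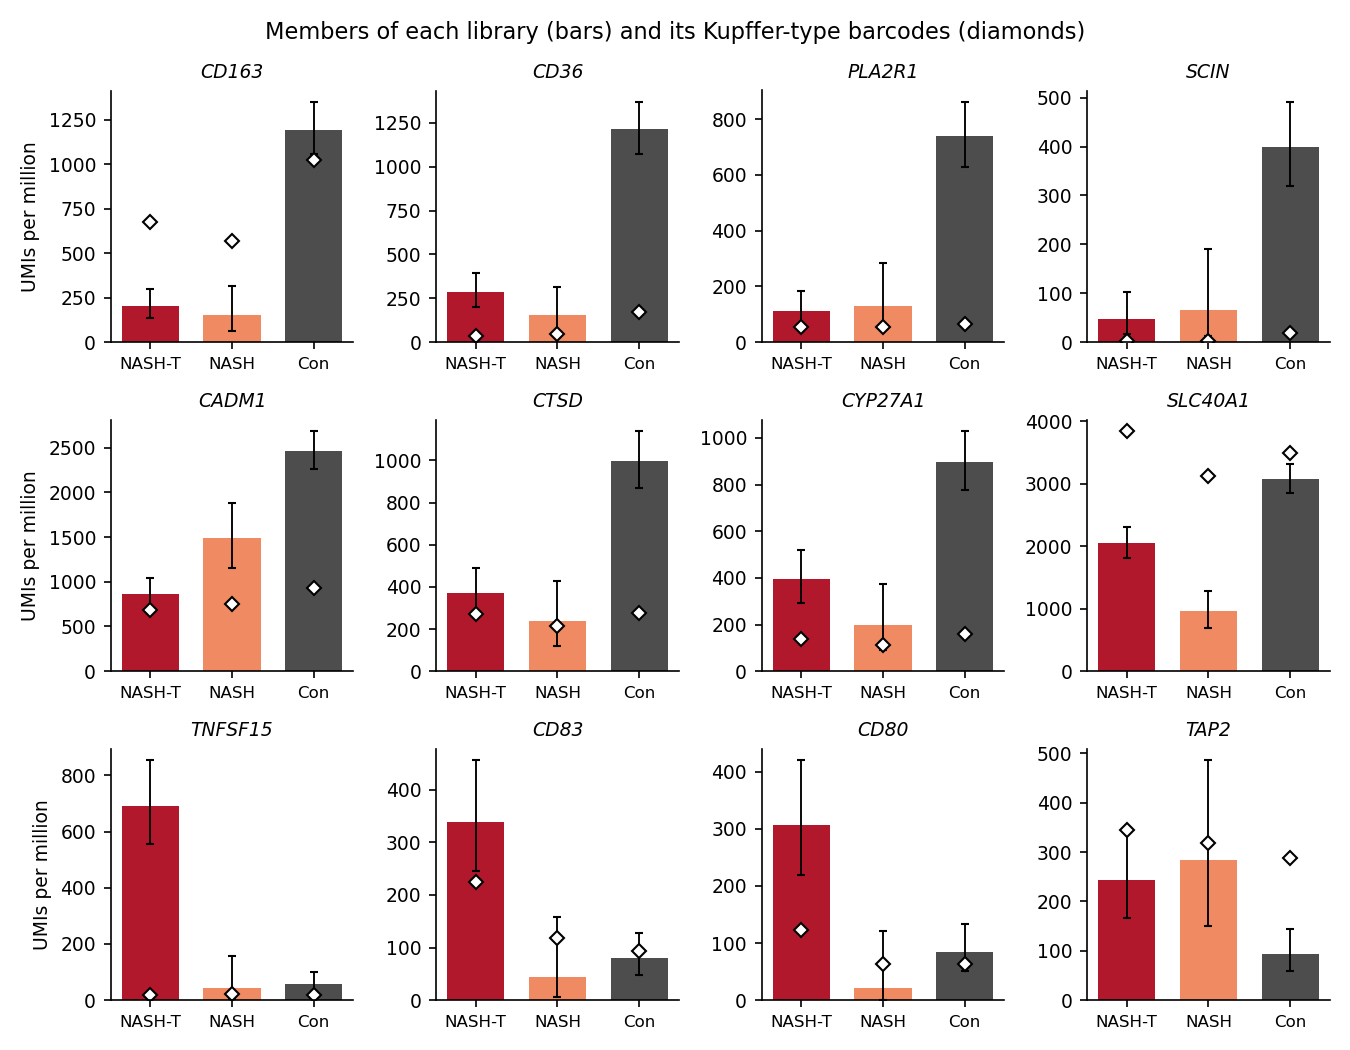
UPM of 12 genes in members of the NASH-T, NASH and Con libraries (bars, exact Poisson 95% intervals), with Kupffer-type barcodes of the same library as diamonds. CD163, CD36, PLA2R1 and SCIN are highest in Con members, TNFSF15, CD83 and CD80 in NASH-T members.

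In NASH members, 7 of 10 lipid-associated macrophage genes, 4 of 5 iron and haem genes and 5 of 15 lysosome genes were lower past 2-fold than in Con members. The members with only CPM, in which many of these genes were low, were 40.9% of members in NASH and 9.46% in Con. What this difference in makeup adds to the comparison was not tested, and values within members with 2 or more markers are given beside the results where they could be measured. Of 2148 measured genes, 105 (4.89%) were higher past 2-fold in NASH and 180 (8.38%) lower (median log2 ratio -0.06). Within members with 2 or more markers, 8 in NASH and 62 in Con, 87 of 1753 genes were higher and 60 lower. The balance of these counts cannot be read, as NASH held 15635 UMIs there and Con 197368. A gene with few UMIs can then be called higher, but not lower even when NASH has none. TENM4 and TBCD, at a ratio of 0 there, had intervals reaching 1.03 and 1.13 and were not called. The same limit holds for all counts of lower genes within such members for NASH over Con. Of the 42 genes past 2-fold that are named or listed in this comparison, 29 could still be measured there and 8 were past 2-fold.

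Among the genes that were past 2-fold both ways, LGALS3 had 54 UMIs in NASH-T members, 3 in NASH and 117 in Con, a ratio of NASH over Con of 0.125 (0.0254 to 0.375) and of 0.329 (0.0669 to 0.987) within members with 2 or more markers. CD36 was at 0.126 of Con (0.349 within) and CD163 at 0.128 (0.246 within). SLC40A1, the iron exporter ferroportin, stood at 2046, 961 and 3070 UPM in NASH-T, NASH and Con, so that NASH was at 0.313 of Con (0.225 to 0.425) and at 0.305 within. Kupffer-type barcodes held 3833, 3114 and 3497, a ratio of NASH over Con of 0.890. LGMN had 48, 5 and 98 UMIs (0.249, and 0.260 within, 0.0311 to 0.966).

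Other differences in NASH were smaller once only members with 2 or more markers were compared. CTSD was at 0.241 of Con and at 0.528 within, LIPA, the lysosomal acid lipase, at 0.283 and 0.754, and PDGFC, a platelet-derived growth factor, at 0.260 and 0.691. MERTK, the receptor for dying cells, was at 0.493 and 0.636, FTH1 at 0.409 and 0.521, and the oxysterol enzyme CYP27A1 at 0.220 and 0.478 with an interval that includes 1. Without the stellate-marked barcodes alone, MERTK was at 0.518 and 6 of the 10 lipid-associated genes were lower. Of the 10 lipid-associated macrophage genes, with a list median of -1.67, 2 of 9 were lower within members with 2 or more markers (-0.82). Of the 15 lysosome genes 1 was also higher (-0.38), and 1 of 14 was lower and 1 higher within (0.09). Of the 5 iron and haem genes (-1.68), 2 were lower and 1 higher within. CACNA1E had 63, 1 and 124 UMIs in NASH-T, NASH and Con members (NASH over Con 0.0394, 0.000988 to 0.223, and 0.103 within), and TENM4, a teneurin, had 23, 0 and 51, at least 3.48-fold lower in NASH, though not past 2-fold within.

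Genes higher in NASH than in Con members included some that were higher in the only-CPM kind when libraries were pooled. PLXDC2 stood at 338, 1092 and 260 UPM in NASH-T, NASH and Con (NASH over Con 4.21, 2.82 to 6.25), CREB5 had 41, 22 and 27 UMIs (3.98) and HLA-DRA 20, 20 and 29 (3.37, 1.80 to 6.16). None of these, nor TAP2, reached 30 UMIs within members with 2 or more markers. Below that minimum, PLXDC2 had 17 UMIs in NASH and 11 in Con there, or 1087 and 55.7 UPM. HLA-DRA had 5 and 19 (320 and 96.3 UPM) and CREB5 0 and 10 (0 and 50.7 UPM). TAP2 was 3.02-fold higher, and CIITA, the master regulator of MHC class II genes, 2.12-fold, but 1.12-fold within. Together 3 of 6 measured antigen presentation genes were higher (list median 0.81), and 1 of 4 within members with 2 or more markers. TRPC6, a calcium-permeable channel, was 5.86-fold higher and DOCK1, an activator of Rac in engulfment, 3.42-fold. Without the stellate-marked barcodes both had fewer than 30 UMIs and could not be measured.

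TNFSF15, CD80 and CD83 were higher in NASH-T than in NASH members, as were the lysosomal protease CTSB and the iron genes FTH1 and SLC40A1. Of 1455 measured genes, 116 (7.97%) were higher past 2-fold in NASH-T and 83 (5.7%) lower (median log2 ratio 0.08). TNFSF15 was 15.9-fold higher in NASH-T (4.26 to 133), CD80 14.1-fold (2.38 to 569) and CD83 7.75-fold (2.02 to 66.0), all from 1 or 2 UMIs in NASH. CTSB stood at 1534, 459 and 1311 UPM in NASH-T, NASH and Con members, 3.35-fold higher in NASH-T than in NASH (2.13 to 5.53). FTH1 was 2.75-fold higher, and 2.61-fold within members with 2 or more markers, and SLC40A1 was 2.13-fold higher, and 2.57-fold within. MERTK was 2.17-fold higher, and 1.95-fold within. Of 6 lipid-associated macrophage genes 3 were higher (list median 1.23), and of 12 lysosome genes 3 were higher and 1 lower (0.33). That lower gene was TFEC, a transcription factor of the MITF family, with 126, 107 and 201 UMIs (0.424 of NASH), but 68 of its 107 NASH UMIs lay in 1 cell and the ratio was 1.04 without the top barcodes. CCDC88A, an actin-linked signalling protein, stood at 118, 633 and 201 UPM (0.186 of NASH), and HLA-DRA at 0.360 of NASH, and neither reached 30 UMIs within members with 2 or more markers.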

How the data were processed

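Liver cells were profiled by 3′ single-cell RNA sequencing (10x Genomics) in 3 libraries. Cell Ranger 7.0.0 was used, per the submitters' processing notes, and the authors deposited raw UMI counts for each gene in each barcode. As for the genome build, it is not given in the sources used here. Deposited files held 27271 features, 9958 of them with an identifier only, and rows of the same symbol were summed. Every deposited barcode (each with at least 500 UMIs) entered the rule, without further filters. Raw UMIs were summed over members per library and divided by the class total, giving UMIs per 1000000 (UPM) with exact Poisson intervals. Shares carry exact binomial (Clopper-Pearson) intervals and ratios exact conditional binomial intervals, at 95%, which cover counting error only. Against 0 UMIs a floor of 3 counts per library was used. Genes needed 30 UMIs in both compared classes together to count as measured.

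The members, 23 gene lists (418 names, 356 matched) and 13 marker lists were chosen with earlier results of these data known. Named genes are the rule markers with NRP2, the largest ratios past 2-fold in each comparison (12 higher and 10 lower against Kupffer-type barcodes, 8 in each direction between libraries), and up to 4 members per list. The text gives part of these, some genes are not reported here, and genes outside the rule were chosen after their values were seen. For the division by rule marker the 10 largest ratios in each direction were taken, from genes with a UMI in at least 33% of the cells of the higher kind. Doublets were called with Scrublet per library (expected rate 0.06) and marked 455, 342 and 291 barcodes in NASH-T, NASH and Con, none of them a member. Barcodes were also thinned to 1000 UMIs. Other alternatives changed the rule, the gene minimum and the barcodes kept. Leaving out stellate-marked members or the top barcode of each gene, requiring 2 or more of the 4 rule markers, and the division by rule marker were added after the data were seen. The ratio calculation was tested on simulated data. Tools were Python 3.11.15, numpy 2.4.6, scipy 1.17.1, pandas 2.3.3, scanpy 1.11.5 and matplotlib 3.10.9.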

Additional observations from a re-analysis of the deposited data

How the results depend on the processing

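With 1 library per group there was no replicate to leave out, and no paired analysis was possible because no group had a second library. Depth limits NASH most: its 22 members hold 45800 UMIs, and genes with fewer than 30 UMIs under an alternative got no value there, nor did ratios over 0 UMIs. Leaving out called doublets, leaving out the deepest 1% of barcodes and those over a mitochondrial limit, a marker sum of at least 2 or 5, equal weight for every cell, and scaling to the median gene moved no share beyond its interval and no count by over 1.5 times. At a marker sum of at least 5, however, the NASH share was 0.160% and NASH-T over NASH was 2.13 (1.10 to 4.32), an interval that no longer includes 1. Allowing no Kupffer gene UMI gave shares of 0.0427%, 0.0687% and 0.174% in NASH-T, NASH and Con, share ratios of 0.246 for NASH-T over Con and 0.621 for NASH-T over NASH, and counts past 2-fold, higher and lower, of 20 and 31 for NASH-T over Con, 13 and 24 for NASH over Con, 11 and 8 for NASH-T over NASH, 36 higher against Kupffer-type barcodes, and 13 and 13 for only CPM over 2 or more markers. Thinning gave a share ratio of NASH over Con of 0.141 and, in the same order of comparisons, counts of 30 and 26, 35 and 44, 23 and 18, 37 and 26, and 60 and 104. Requiring 2 or more rule markers gave shares of 0.277% in NASH-T and 0.0916% in NASH, share ratios of 0.111 for NASH over Con and 3.03 for NASH-T over NASH, and counts of 60 lower for NASH over Con, 57 and 55 for NASH-T over NASH, and 39 lower against Kupffer-type barcodes. Leaving CPM out of the rule gave shares of 0.0802% in NASH and 0.574% in Con, and share ratios of 0.140 for NASH over Con and 3.59 for NASH-T over NASH. With at least 100 UMIs per gene, the counts were 15 and 26 for NASH-T over Con, 17 and 57 for NASH over Con, 29 and 6 for NASH-T over NASH, and 51 and 144 for only CPM over 2 or more markers. With no minimum they were 279 and 252 for NASH-T over Con, 351 higher for NASH over Con, 193 and 374 for NASH-T over NASH, and 474 higher for only CPM. Without the top barcode of each gene, which moved the median log2 ratio of all genes to -0.43 for members over Kupffer-type barcodes and -0.35 for NASH over Con, 56 were higher for NASH-T over Con, 37 higher for NASH over Con, 35 lower for NASH-T over NASH, 49 higher and 140 lower against Kupffer-type barcodes, and 107 higher for only CPM. When each marker was read in cells with 2 or more of the other 3, CPM stood at 0.548 for NASH over Con and 0.526 for NASH-T over NASH. GPNMB stood at 1.05, 0.681 and 1.54 for NASH-T over Con, NASH over Con and NASH-T over NASH, MCOLN3 at 2.18, 1.92 and 1.14, and GLDN at 0.570 for NASH over Con and 1.11 for NASH-T over NASH. Of the named genes, 4 turned round when no Kupffer gene UMI was allowed: PLXDC2 (0.476) and FTH1 (1.37) for NASH over Con, MYO1E (0.369) for only CPM, and LPL against Kupffer-type barcodes (0 UMIs). NCEH1 for NASH over Con was 1.15 with 2 or more markers, and TFEC for NASH-T over NASH was 1.16 with no hepatocyte gene UMI and 1.04 without the top barcode. The causes were not tested.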

Other observations

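Of all 7616 genes measured against Kupffer-type barcodes, 1.4% were higher and 0.945% lower past 2-fold in all 3 libraries, so counts of 0 or 1 in a short list say nothing particular about it. None of 15 measured genes of antigen presentation was past 2-fold there (median log2 ratio 0.06), nor was any of 18 interferon-stimulated genes (-0.55), 11 genes of fatty acid oxidation (0.29) or 9 of iron and haem (-0.20). Of 11 genes of cholesterol synthesis 1 was higher, SREBF2, which encodes their main transcriptional regulator (2.47-fold), and none without the stellate-marked members. Of 12 efferocytosis genes, those for clearing dying cells, 2 were higher and none lower (0.22), or 1 of 11 without the stellate-marked members, and of 5 giant cell and osteoclast genes 1 was higher (0.89). Of 11 Kupffer cell identity genes 1 was lower and none higher (-0.86).

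Between libraries, 5.3% of all genes were lower past 2-fold for NASH-T over Con and 8.38% for NASH over Con. Beside these, 2 of 7 Kupffer cell identity genes were lower in NASH-T than in Con members and none higher (-0.59), and 4 of 7 were lower in NASH than in Con (-1.68), with 2 of 7 lower within members with 2 or more rule markers. Of 9 efferocytosis genes 3 were lower and 1 higher in NASH than in Con (-0.51). Complement genes had 1 of 7 lower in NASH-T than in Con, C1QA at 0.494, and none of 7 past 2-fold in NASH over Con (-0.56). No gene of the proliferation list reached 30 UMIs in any comparison between libraries.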
